A study of Gallus gallus with 15 samples.

Results

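Sestrins and other genes around mTOR, only some of them restraints on it, were followed in chicken abdominal fat. Every probe set was taken that the array annotation gives to SESN1, SESN3, DDIT4, TSC1, TSC2, DEPTOR, TBCK, EIF4EBP1, MTOR or RPTOR. These 10 genes, of 13009 named on the array, hold 26 of its 38439 probe sets that are not controls. Tissue came from 15 male broilers of the ISA915 line, a meat-type chicken, at 16 to 17 days of age, with 1 array for each of 5 fed, 5 insulin-neutralized and 5 fasted birds. Fed birds ate freely and fasted birds went without feed for 5 h, and both were injected with normal porcine serum. Insulin-neutralized birds kept their feed and were injected with porcine serum against insulin at 0, 2 and 4 h. Values are on the log2 scale, so that a difference of 1 is a 2-fold change. The samples are whole tissue, in which fewer cells of a type and less RNA per cell cannot be told apart.

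The protein kinase mTOR sits in a complex with RPTOR, its substrate-binding subunit, and drives protein synthesis and growth when amino acids and insulin are plentiful. Amino acids act through the Rag GTPases at the lysosome, and sestrins hold this branch back by binding GATOR2, an activator of it. Insulin acts through the kinase AKT, which switches off the TSC1-TSC2 complex and so frees the small GTPase RHEB to activate mTOR. DDIT4 restores the TSC complex, DEPTOR binds and inhibits mTOR, and EIF4EBP1 blocks the cap-binding factor EIF4E until mTOR phosphorylates it. These roles are known from mammals and flies, and most of this control acts on proteins, which an array does not measure.

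Of the members, SESN1 and 1 probe set of TBCK rose in fasted birds, and the other genes with a measurable probe set did not pass the test. Probe sets below 3 on at least 5 arrays were not tested, following the methods, which left 12 of the 26, from 8 of the 10 genes. Of the 14 not tested, 13 lay below 3 on all 15 arrays, among them the only probe set of DDIT4 and both of TSC2. In fasted against fed birds, 3 of the 12 were called, each higher (Benjamini-Hochberg adjusted p under 0.05 from limma), against 4.95% of all 18612 tested probe sets called higher, 4.69% called lower and 9.64% called in either direction. In insulin-neutralized against fed birds 1 of the 12 was called, also higher, against 0.269% of all tested probe sets called higher, 0.226% called lower and 0.494% in either direction. In insulin-neutralized against fasted birds limma called 0 of the 12, with 1 at an unadjusted p under 0.05, against 1.54% of all tested probe sets called higher, 2.53% called lower and 4.06% in either direction. At an unadjusted p under 0.05 there were 3324 of all 18612 in that comparison. The first and second comparisons share the fed birds, so they are not independent of each other. The median log2 difference of the members was 0.02 for fasted vs. fed, 0.06 for insulin-neutralized vs. fed and -0.08 for insulin-neutralized vs. fasted, beside -0.04, -0.02 and 0.02 over all tested probe sets.

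**Figure D1:**
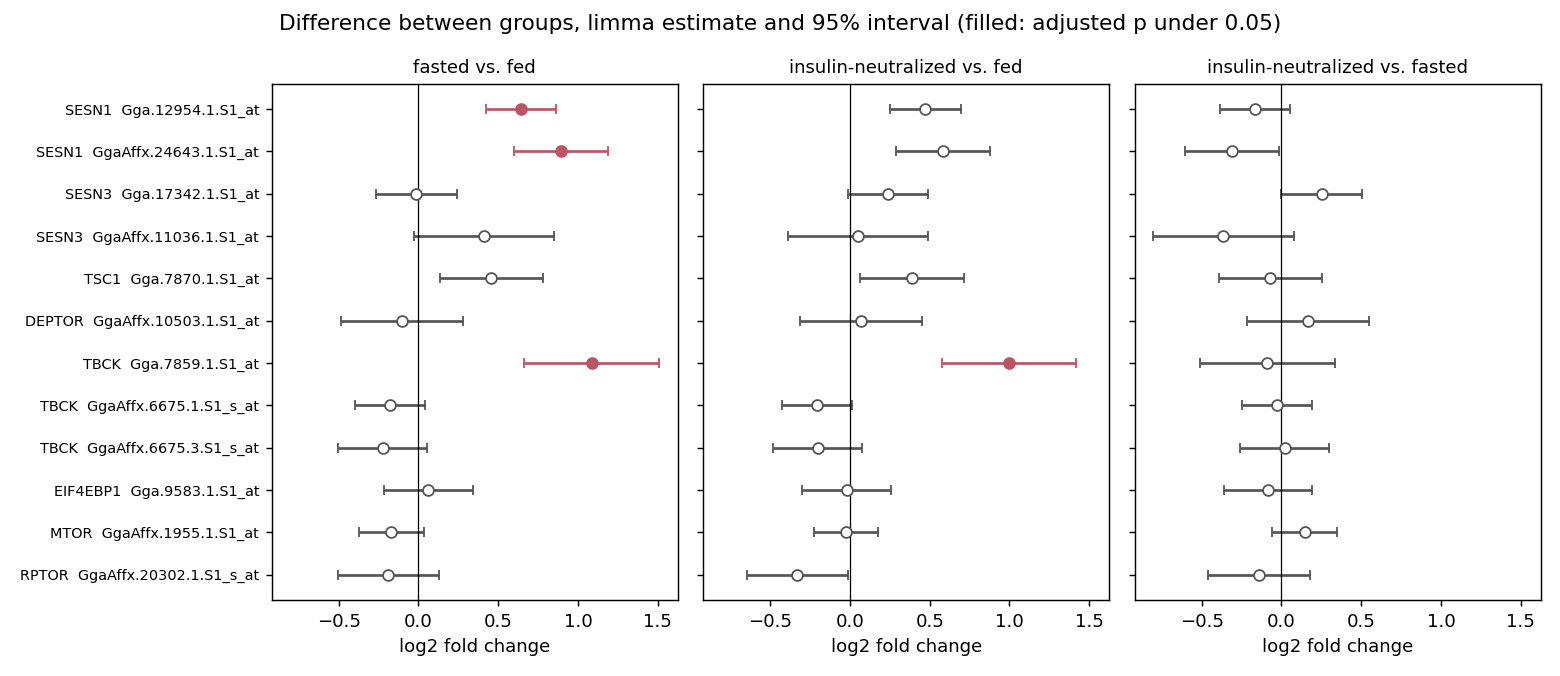
The estimated log2 difference of each of the 12 tested member probe sets is drawn with its 95% interval from limma for each of the 3 comparisons. Both SESN1 probe sets and 1 of the 3 tested TBCK probe sets lie to the right of 0 against fed birds, while most other intervals span 0.

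The tissue carried the transcripts of fat, and the arrays of fed birds 4 and 5 stood somewhat apart. Of 11 adipocyte markers, 10 passed the filter, GPAM lay below it, and their mean level ran from 13.01 to 13.23 in fed, 12.40 to 13.13 in insulin-neutralized and 12.52 to 13.03 in fasted birds. Of 6 skeletal muscle markers 3 passed the filter, with a mean level of 6.45 to 7.90 in fed, 6.31 to 8.16 in insulin-neutralized and 6.18 to 6.43 in fasted birds. Among the markers, PPARG and CEBPA, transcription factors of fat cells, fell in fasted birds (log2 differences -0.82 and -1.48, adjusted p = 0.0193 and 0.00809 from limma), as did skeletal muscle actin ACTA1 (-1.10, adjusted p = 0.0139), whereas the lipase PNPLA2 rose (0.50, adjusted p = 0.0482). CDH5, a cadherin of endothelial cells, also rose in fasted birds (0.44, adjusted p = 0.0389). Its log2 difference of insulin-neutralized from fed birds was 0.45 (adjusted p = 0.119), and neither treated group overlapped the fed birds. KDR, another of the 5 endothelial markers, went the other way. It was -0.87 in fasted (adjusted p = 0.0772 from limma) and -0.84 in insulin-neutralized birds (adjusted p = 0.182). PECAM1, TEK and VWF had higher means in both treated groups than in fed birds without passing the test. The part of these markers in the member values was not tested. CKM was not among the named genes and MYLPF stayed at or below 2.35 on all arrays. MYH1B, a muscle myosin, did not pass the filter either, although its highest value on any array was 8.31. The mean correlation with the other arrays was 0.955 for fed bird 4 and 0.958 for fed bird 5, against 0.963 to 0.977 elsewhere, and their poly-A spike-in controls were at 9.85 and 9.60 against 8.73 to 9.36.

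SESN1, which encodes sestrin 1, a leucine-responsive partner of GATOR2 and in mammals a target of p53 and FOXO factors, was higher in fasted than in fed birds on both of its probe sets. On probe set Gga.12954.1.S1_at the fed birds measured 13.78, 13.54, 13.75, 13.58 and 13.83. The insulin-neutralized birds measured 14.33, 14.38, 13.97, 14.10 and 14.07, and the fasted birds 14.42, 14.24, 14.25, 14.24 and 14.53. All 10 birds of the treated groups lay above all 5 fed birds, whereas the treated groups overlapped each other. The fasted birds were 1.56-fold above the fed birds (log2 difference 0.64, SE 0.10, adjusted p = 0.00150 from limma). The insulin-neutralized birds were 1.39-fold above the fed birds, which missed the threshold (log2 difference 0.47, SE 0.10, adjusted p = 0.0599). Between the treated groups the log2 difference was -0.17 (95% interval -0.39 to 0.05, adjusted p = 0.440).

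The second SESN1 probe set, GgaAffx.24643.1.S1_at, ordered the groups in the same way at a lower signal. Fed birds measured 11.00, 10.76, 11.09, 10.91 and 11.18, insulin-neutralized birds 11.86, 11.85, 11.34, 11.30 and 11.50, and fasted birds 12.03, 11.74, 11.71, 11.77 and 12.14. Again no treated bird fell within the fed range, and insulin-neutralized birds 1 and 2 reached the fasted range while birds 3, 4 and 5 lay between the fed and the fasted birds. The fasted birds were 1.86-fold above the fed birds (log2 difference 0.89, SE 0.14, adjusted p = 0.00108 from limma) and the insulin-neutralized birds 1.498-fold (log2 difference 0.58, SE 0.14, adjusted p = 0.0729). The insulin-neutralized mean stood at 0.653 of the way from the fed to the fasted mean here and at 0.738 on the other probe set. Between the treated groups the log2 difference was -0.31 (95% interval -0.60 to -0.02, adjusted p = 0.250).

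Both SESN1 probe sets were read on the same 15 arrays, and they moved together from bird to bird. Their values correlated at r = 0.984 (Spearman's rho 0.971) over the birds, and at r = 0.938 once each group's mean was removed, so that birds high on one were high on the other within a group as well. The rise was larger on the weaker probe set. Per bird, the first exceeded the second by 2.71 ± 0.07 in fed, 2.60 ± 0.13 in insulin-neutralized and 2.46 ± 0.07 in fasted birds (log2, SD). From fed to fasted birds this gap fell by 0.25 (exact permutation test, two-sided, p = 0.00794, the smallest that 5 against 5 birds allow, adjusted p = 0.0238 over the 15 comparisons of probe sets of 1 gene). This test was added after the values had been seen.

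The call of SESN1 in fasted birds held on each probe set under every alternative in which that probe set was fitted, with adjusted p between 0.000593 and 0.00695 from limma. Without fed birds 4 and 5 the log2 differences were 0.65 and 0.93. The difference from fed to insulin-neutralized birds lay near the threshold. It was called on Gga.12954.1.S1_at with array weights (adjusted p = 0.0386), with trend and robust moderation (0.0382), with 1 probe set per gene (0.0481) and with the 3 comparisons adjusted together (0.0185). The adjusted p of that difference reached 0.167 and, on the second probe set, 0.197 when single birds were left out.

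**Figure D2:**
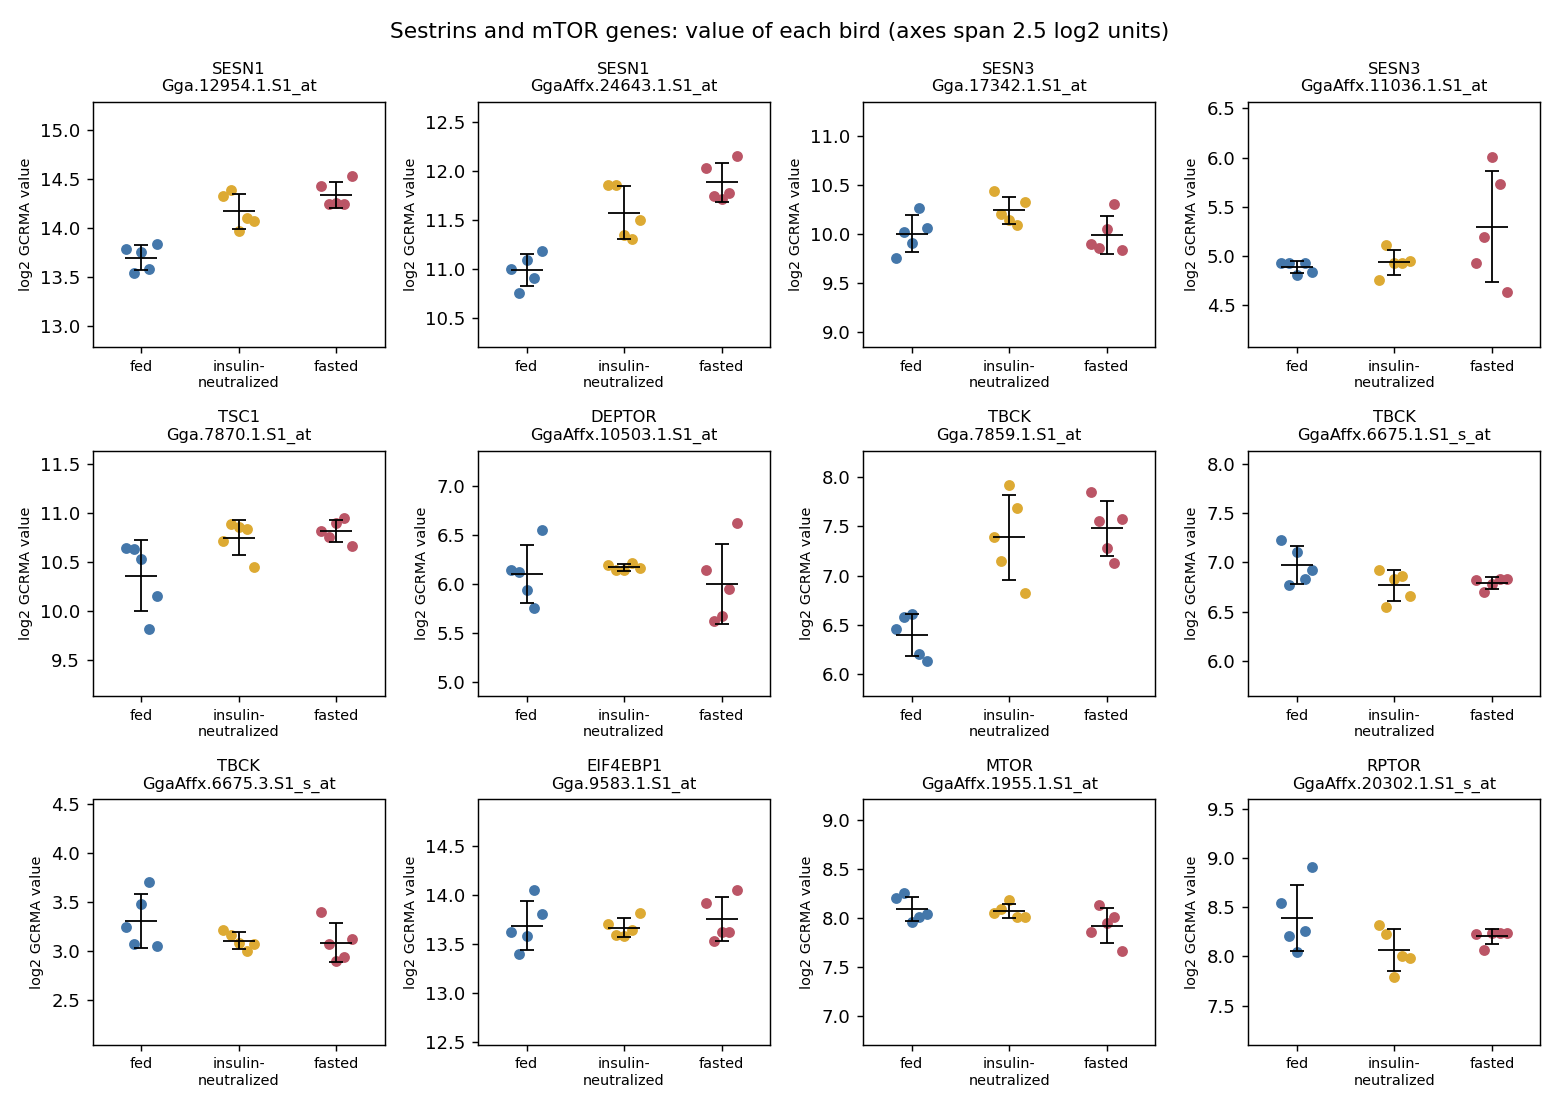
The log2 value of each bird is plotted for the tested member probe sets by group (fed, insulin-neutralized, fasted), with bars for the group mean and SD, and each axis spans 2.5 log2 units. On both SESN1 probe sets and on TBCK Gga.7859.1.S1_at the 5 fed birds lie below all treated birds, and on TSC1 fed birds 4 and 5 lie lowest.

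SESN3, the other sestrin on the array annotation, showed no change that passed the test. Its probe set Gga.17342.1.S1_at had means of 10.01 ± 0.19 in fed, 10.24 ± 0.14 in insulin-neutralized and 9.99 ± 0.20 in fasted birds (SD of 5 birds), and the groups overlapped. The log2 difference of fasted from fed birds was -0.01 (95% interval -0.26 to 0.24, adjusted p = 0.965 from limma), an interval that lies below the 0.64 estimated for SESN1. Insulin-neutralized birds were 0.24 above fed birds (95% interval -0.01 to 0.49, adjusted p = 0.306) and 0.25 above fasted birds (adjusted p = 0.281). The weaker probe set GgaAffx.11036.1.S1_at measured 4.93, 5.19, 6.01, 5.73 and 4.63 in fasted birds, against 4.80 to 4.93 in fed and 4.75 to 5.11 in insulin-neutralized birds. Fasted birds 3 and 4 were high and fasted bird 5 was the lowest of all birds. The log2 difference of fasted from fed birds was 0.41 here (SE 0.21, adjusted p = 0.232 from limma). Its 95% interval, -0.03 to 0.85, holds the 0.64 estimated for SESN1. On this probe set 6 of the 15 birds had the same value of 4.93, and its values followed those of the stronger SESN3 probe set only weakly (r = 0.151 over the 15 birds). With each group's mean removed, r was 0.416.

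DDIT4, also called REDD1, is induced by stress in mammals and acts on the TSC complex. Its single probe set lay between 2.26 and 2.32 on all 15 arrays, close to the lowest value of the table, 2.18, so that no level of DDIT4 could be read in any group. The gene identifier that the array annotation pairs with this symbol was not found in the RefSeq gene table used here, in contrast to the other 9 members, so that its assignment rests on the symbol. TSC2, the GTPase-activating partner of TSC1, had 1 probe set at 2.18 on every array and a second between 2.53 and 2.96. A value near the floor says only that these probes gave no signal above the background set by the processing.

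TSC1, which stabilises TSC2 in the complex that restrains RHEB, had a higher mean in fasted than in fed birds, a difference that did not pass the test. Fed birds measured 10.65, 10.64, 10.54, 9.82 and 10.16 on Gga.7870.1.S1_at, insulin-neutralized birds 10.71, 10.89, 10.86, 10.84 and 10.45, and fasted birds 10.82, 10.76, 10.90, 10.95 and 10.67. All fasted birds lay above all fed birds, and insulin-neutralized bird 5 lay within the fed range. The log2 difference was 0.46 for fasted against fed birds (1.37-fold, SE 0.15, adjusted p = 0.0741 from limma) and 0.39 for insulin-neutralized against fed birds (SE 0.15, adjusted p = 0.225). The lowest values were those of fed birds 4 and 5, whose arrays stood apart. Without these birds the log2 differences were 0.21 (adjusted p = 0.245) and 0.14 (adjusted p = 0.725), and the part of those arrays in the difference was not otherwise tested. The other TSC1 probe set stayed between 2.18 and 2.84.

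Counting TSC1, 4 of the 12 member probe sets had all fasted birds above all fed birds, against 4.21% of all tested probe sets, and 3 had all insulin-neutralized birds above all fed birds, against 1.98%. The 3 were both SESN1 probe sets and TBCK Gga.7859.1.S1_at. For the treated groups against each other the number was 0 in either direction, against 3.91% and 4.44%.

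TBCK encodes a protein with a kinase-like and a TBC domain, whose loss in human cells lowers mTOR signaling, so that it is not itself a brake. It had 6 probe sets, and 3 of them were at 2.18 on all arrays. The probe set Gga.7859.1.S1_at measured 6.46, 6.58, 6.60, 6.20 and 6.13 in fed birds, 7.39, 7.14, 7.92, 7.68 and 6.82 in insulin-neutralized birds and 7.85, 7.56, 7.28, 7.13 and 7.58 in fasted birds. Every treated bird lay above the highest fed bird, and the ranges of the treated groups overlapped. The fasted birds were 2.12-fold above the fed birds (log2 difference 1.09, SE 0.20, adjusted p = 0.00340 from limma), a call that held in 25 of 25 alternatives. The insulin-neutralized birds were 1.996-fold above the fed birds (log2 difference 0.997, SE 0.20, adjusted p = 0.0448), the only member call in that comparison and 1 of 72 probe sets (0.387%) called against fed birds in both treatments. The treated groups differed by -0.09 (95% interval -0.51 to 0.33, adjusted p = 0.871).

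The call of TBCK in insulin-neutralized birds was close to the threshold and held in 8 of 25 alternatives, which did not include array weights. It was lost when any single bird was left out other than fasted bird 2, fed bird 2 or insulin-neutralized bird 5, with an adjusted p of up to 0.119 from limma, although the log2 difference stayed between 0.86 and 1.14. Without fed birds 4 and 5, which were the lowest birds on this probe set, it was 0.84 (adjusted p = 0.187), and the fasted difference was 0.93 (adjusted p = 0.0250).

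The other TBCK probe sets above the filter did not follow Gga.7859.1.S1_at from group to group. With each group's mean removed, GgaAffx.6675.1.S1_s_at correlated with it at r = 0.388 and GgaAffx.6675.3.S1_s_at at r = 0.187. On GgaAffx.6675.1.S1_s_at 4 of the 15 birds shared the value of 6.835. This probe set had a mean of 6.97 ± 0.19 in fed, 6.77 ± 0.16 in insulin-neutralized and 6.79 ± 0.06 in fasted birds. Its log2 difference from fed birds was -0.18 in fasted birds (95% interval -0.40 to 0.04, adjusted p = 0.302 from limma) and -0.21 in insulin-neutralized birds (95% interval -0.43 to 0.01, adjusted p = 0.308). The weak probe set GgaAffx.6675.3.S1_s_at, with 2 arrays below 3, gave -0.22 and -0.20 (adjusted p = 0.312 and 0.428). Per bird, Gga.7859.1.S1_at minus GgaAffx.6675.1.S1_s_at was -0.58 ± 0.25 in fed birds, 0.62 ± 0.35 in insulin-neutralized birds and 0.69 ± 0.29 in fasted birds. The change in this difference was 1.27 in fasted and 1.20 in insulin-neutralized birds, each with an exact permutation p = 0.00794, two-sided, and an adjusted p = 0.0238 over the same 15 comparisons. These tests were added after the values had been seen. Gga.7859.1.S1_at already separated treated from fed birds, so these p-values are no separate support. A rise of TBCK against fed birds was called on 1 of its 3 measured probe sets. Which transcripts each of them detects could not be looked up from probe sequences here.

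**Figure D3:**
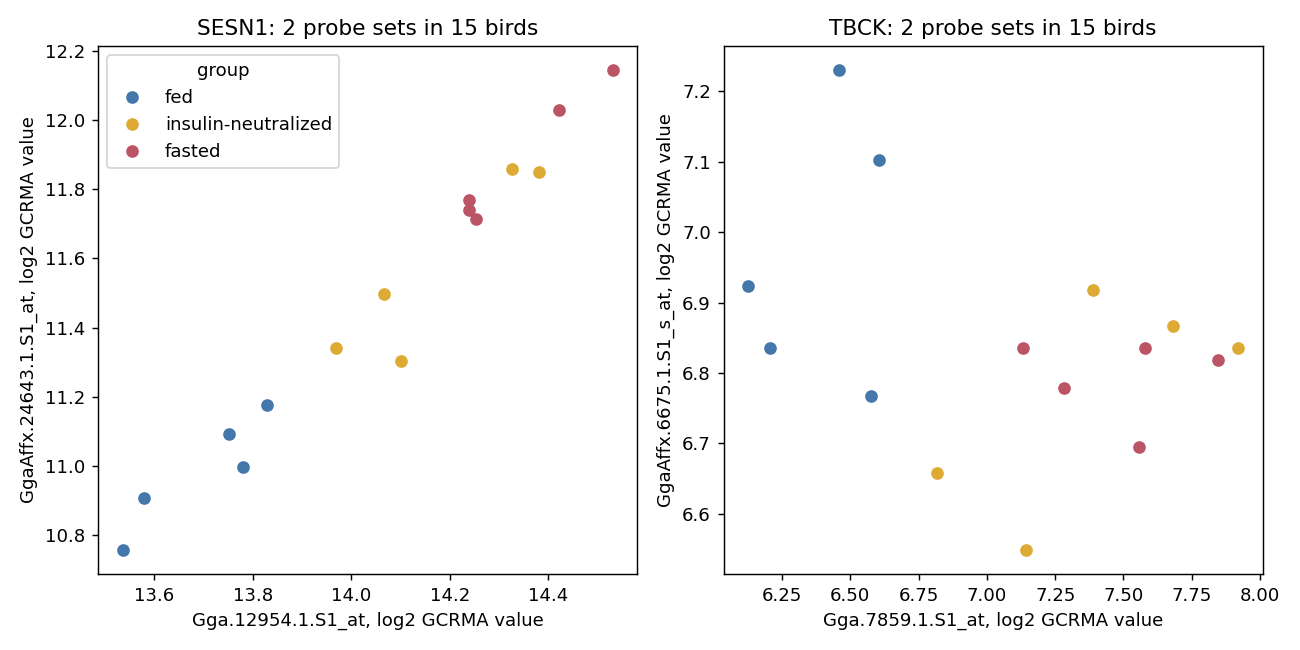
Each point is 1 bird, coloured by group, with the log2 value of 1 probe set on each axis, for the SESN1 probe sets and for TBCK Gga.7859.1.S1_at against GgaAffx.6675.1.S1_s_at. The SESN1 points lie along 1 line (r = 0.984), whereas the TBCK points separate fed from treated birds on Gga.7859.1.S1_at alone (r = -0.32). With each group's mean removed, the TBCK pair correlated at r = 0.39.

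The kinase, its scaffold, its inhibitor and its translational target showed no difference that passed the test. MTOR, measured by 1 of 4 probe sets, had a mean of 8.09 ± 0.13 in fed, 8.07 ± 0.07 in insulin-neutralized and 7.92 ± 0.18 in fasted birds. The log2 difference of fasted from fed birds was -0.17 (95% interval -0.37 to 0.03, adjusted p = 0.292 from limma), and the other 3 MTOR probe sets lay at or below 2.27 in all birds. RPTOR, measured by 1 of 5 probe sets, had the largest difference below fed birds among the members: its mean was 8.39 ± 0.34 in fed, 8.07 ± 0.21 in insulin-neutralized and 8.20 ± 0.08 in fasted birds. The insulin-neutralized difference of -0.33 had a 95% interval of -0.65 to -0.01 and missed the threshold after adjustment (adjusted p = 0.270), and the groups overlapped.

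DEPTOR had a mean of 6.11 ± 0.29 in fed, 6.17 ± 0.04 in insulin-neutralized and 6.005 ± 0.41 in fasted birds. Its log2 difference from fed birds was -0.10 in fasted (95% interval -0.48 to 0.28, adjusted p = 0.778 from limma) and 0.07 in insulin-neutralized birds (adjusted p = 0.874). The insulin-neutralized birds lay within 6.14 to 6.22, a far narrower range than the fed (5.76 to 6.55) and fasted birds (5.62 to 6.62), and 3 of the 15 birds shared the value of 6.14. EIF4EBP1 had a mean of 13.69 ± 0.25, 13.67 ± 0.10 and 13.75 ± 0.22 in the same order of groups. Its log2 differences were 0.06 in fasted (95% interval -0.22 to 0.34, adjusted p = 0.815) and -0.02 in insulin-neutralized birds (adjusted p = 0.952). A 1.5-fold change of EIF4EBP1, 0.58 on the log2 scale, lies outside both intervals.

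The rest of the pathway was read from 5 lists of 80 genes, of which 63 were on the array and 57 had a tested probe set. With each gene at its highest probe set, limma called 5 of the 57 higher and 2 lower for fasted vs. fed birds (16 at an unadjusted p under 0.05), against 4.93% and 5.77% of all named genes, and the median of the 57 as a log2 difference was 0.04 against -0.05. In insulin-neutralized against fed birds limma called 0 of the 57 (14 at an unadjusted p under 0.05), against 0.281% called higher and 0.314% lower. With 1 probe set per gene fitted, an unadjusted p under 0.05 was met by 2553 of 9243 named genes for fasted vs. fed birds. For insulin-neutralized vs. fed birds it was met by 1859 of them. In insulin-neutralized against fasted birds 1 was called, PIK3R1, which was higher, against 1.69% called higher and 2.67% lower. The shares of called genes lie near those of all genes, so the lists as a whole are not set apart by these counts.

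Within the complexes, 1 of 7 tested genes passed: PRR5, a subunit of the mTOR complex that phosphorylates AKT, was 1.99-fold lower in fasted birds (5.90 ± 0.55 against 6.89 ± 0.28, adjusted p = 0.0107 from limma), with overlap between the groups. In the amino acid branch 1 of 18 passed. It was MIOS, a GATOR2 subunit and so a part of the complex that sestrins bind, which rose 1.44-fold (7.64 ± 0.23 against 7.11 ± 0.27, adjusted p = 0.0232) without overlap. Neither tested gene of the RHEB list passed. Among 15 outputs on translation, autophagy and feedback, only RB1CC1, a scaffold of the ULK1 complex that starts autophagy, passed. It rose 1.80-fold in fasted birds (8.66 ± 0.15 against 7.81 ± 0.35, adjusted p = 0.00450), with no overlap and in 25 of 25 alternatives. In insulin-neutralized against fed birds the log2 differences were -0.43 for PRR5, 0.47 for MIOS and 0.53 for RB1CC1. None was called (adjusted p = 0.321, 0.128 and 0.147 from limma), and only MIOS had no overlap there.

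Among 15 tested genes of insulin and energy input, 3 rose and 1 fell in fasted birds, beside 4.93% and 5.77% of all named genes. PIK3CB, a catalytic subunit of phosphatidylinositol 3-kinase, rose 2.27-fold (adjusted p = 0.0176 from limma). PDPK1, the kinase that activates AKT, rose 1.29-fold (adjusted p = 0.0219), and PRKAG2, a nucleotide-sensing subunit of AMP-activated kinase, rose 1.64-fold (adjusted p = 0.0308). In insulin-neutralized against fed birds the log2 differences were 0.83 for PIK3CB, 0.14 for PDPK1 and 0.50 for PRKAG2. None was called (adjusted p = 0.179, 0.423 and 0.222 from limma), and only PRKAG2 had no overlap there. PIK3R1, the regulatory subunit that pairs with PIK3CB, fell 1.51-fold, from 12.62 ± 0.27 in fed to 12.03 ± 0.18 in fasted birds (adjusted p = 0.0179). Insulin-neutralized birds held PIK3R1 at 12.73 ± 0.21, 0.70 above the fasted birds on the log2 scale (adjusted p = 0.0141). PIK3R1 thus separated the treated groups, which no member did.

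Several of these calls depended on single birds or on the shared estimate of spread. With only fed and fasted birds in the fit, 2 of the 57 were called in place of 7, and the adjusted p was 0.0565 for PRR5, 0.0892 for MIOS, 0.0677 for PIK3CB, 0.0773 for PDPK1 and 0.0884 for PRKAG2. Without fed birds 4 and 5 it was 0.0595 for PRR5, 0.0749 for PDPK1 and 0.0847 for PRKAG2. Without fasted bird 4 it was 0.0605 for MIOS, 0.0503 for PIK3CB and 0.0797 for PRKAG2, and without fasted bird 1 it was 0.0563 for MIOS and 0.0730 for PRKAG2. PRKAG2 also lost its call without fasted bird 5 (0.0629) and without fed bird 1 (0.0512), 3 (0.0573) or 4 (0.0597). With no filter it was 0.0522 for PIK3CB and 0.0775 for PRKAG2. With the bird number as a replicate block it was 0.0561 for MIOS. PIK3R1 kept its call against both fed and insulin-neutralized birds throughout.

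**Figure D4:**
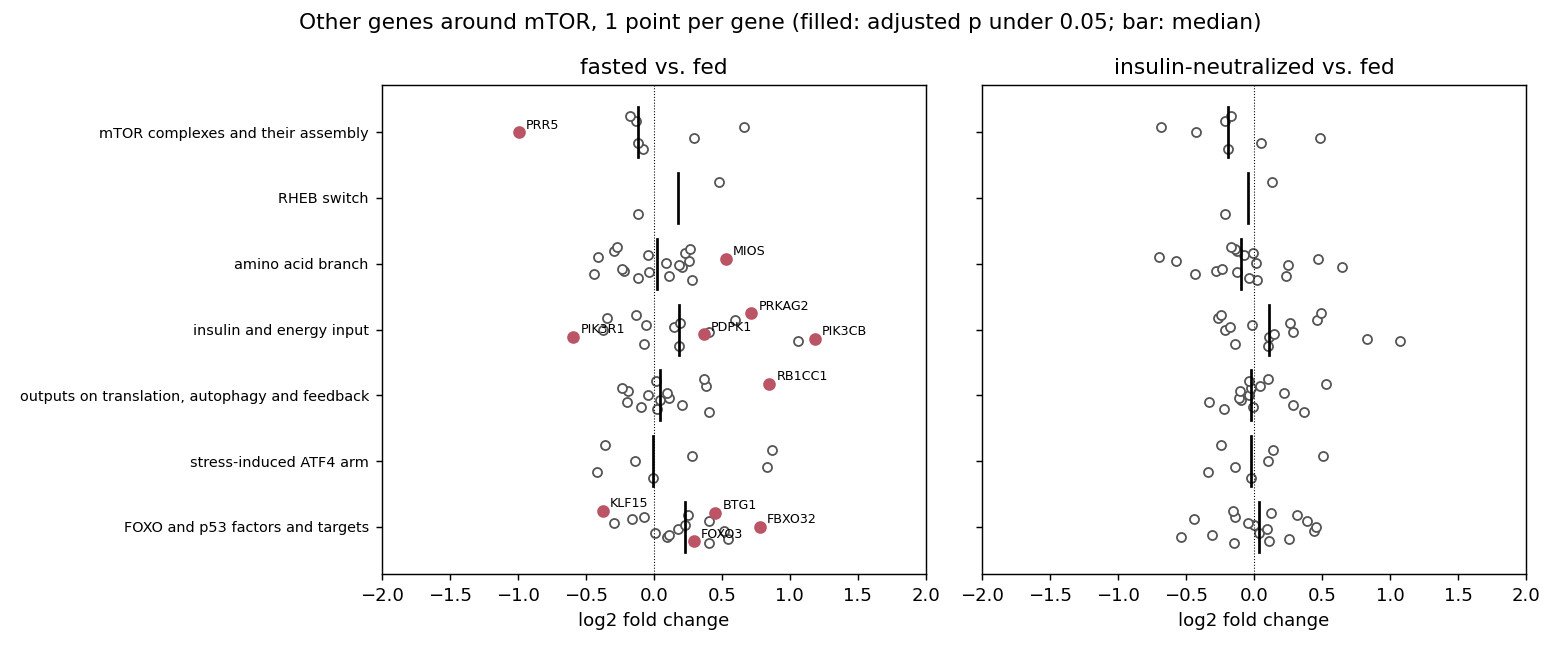
Each point is the log2 difference of 1 listed gene, for fasted vs. fed and insulin-neutralized vs. fed birds, by list, with filled points for genes called at an adjusted p under 0.05 and a bar for the list's median. Medians lie between -0.19 and 0.23, and filled points appear in the fasted panel and not in the other.

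SESN1 and DDIT4 are known in mammals as targets of FOXO and p53 and of the stress factor ATF4, so lists for these factors were read beside them. Over all named genes, 4.93% rose and 5.77% fell in fasted birds. With 1 probe set per gene fitted, 2553 of 9243 had an unadjusted p under 0.05 in fasted against fed birds. In insulin-neutralized against fed birds 1859 of them did. Of 7 tested genes of the ATF4 arm limma called 0 in fasted against fed birds, with 2 at an unadjusted p under 0.05. The FOXO and p53 list had 17 tested genes. For insulin-neutralized vs. fed birds limma called 0 of them, with 5 at an unadjusted p under 0.05. For fasted vs. fed birds 3 rose and 1 fell, with 9 at an unadjusted p under 0.05, 7 higher and 2 lower. FBXO32, a ubiquitin ligase subunit known as atrogin, rose 1.72-fold (adjusted p = 0.00990), BTG1, an antiproliferative factor, rose 1.37-fold (adjusted p = 0.0133) and the transcription factor FOXO3 rose 1.23-fold (adjusted p = 0.0201). KLF15 fell 1.30-fold (adjusted p = 0.0428), a call that held in 8 of 25 alternatives. FOXO3 lost its call without fasted bird 3 (0.0504) or 4 (0.0547), when only fed and fasted birds were fitted (0.0655) and with the replicate block (0.0565).

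Between the treated groups 2 of the 17 were called, both lower in insulin-neutralized birds, beside 2.67% of all named genes called lower and 1.69% called higher. They were MDM2, the ligase that degrades p53, and FOXO1. The MDM2 level of insulin-neutralized birds was 1.55-fold below that of fasted birds (9.60 ± 0.02 against 10.23 ± 0.21, adjusted p = 0.0096 from limma), a call that held in 25 of 25 alternatives, and its fed mean was 10.14 ± 0.24. FOXO1 was 1.47-fold lower (10.15 ± 0.15 against 10.71 ± 0.31, adjusted p = 0.0445), a call that held in 10 of 25 alternatives and whose adjusted p reached 0.104 when single birds were left out.

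Across the 15 birds, the genes whose values ran closest to SESN1 (Gga.12954.1.S1_at), out of 9242 other named genes, were SNAI2, a zinc finger repressor (Pearson's r = 0.940), CTDSPL, a small phosphatase (r = 0.922), and PDK4, the kinase that switches off pyruvate dehydrogenase (r = 0.914). With group means removed the closest were PNPLA2, the triglyceride lipase of adipocytes (r = 0.874), ARHGAP33L2 (r = 0.874) and MMAA (r = 0.855). For TBCK (Gga.7859.1.S1_at) the closest were SESTD1 (r = 0.902), VPS13B (r = 0.895) and P2RX5 (r = 0.890). With group means removed they were KLHL41, a kelch protein of skeletal muscle (r = 0.866), TSHZ3 (r = 0.822) and KRR1 (r = 0.792). These are descriptions over birds that share groups and arrays, chosen as the highest of many.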

How the data were processed

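RNA of abdominal fat from 15 birds was hybridised to the Affymetrix GeneChip Chicken Genome Array. The authors deposited 1 log2 value per probe set and array, made with GCRMA, which corrects background by probe sequence and normalizes across arrays. R 2.9.0, RMA and GCRMA are listed in the processing notes. An array has no read depth, so precision depends on the 5 birds per group. Groups and bird numbers came from the labels.

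After 96 control probe sets were set aside, 19827 with values below 3 on at least 5 arrays were removed and 18612 stayed. This filter also removes a probe set that is low in 1 group alone. Group means were estimated over the 15 arrays with limma 3.58.1 (R 4.3.3, 12 residual degrees of freedom), and p-values were adjusted by Benjamini-Hochberg within each comparison. Differences between probe sets of 1 gene were compared with exact permutation tests, which were added after the data had been seen. The fit was tested on simulated data.

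Gene names came from the platform annotation, and 27168 probe sets carry 1 symbol. All member probe sets were reported. Of the pathway lists, called genes were named, with each gene at its highest probe set. The members and lists were chosen with earlier results of these data known. The marker lists, beside adipocyte and muscle, were of mesothelium, erythroid, immune, endothelial, and fibroblast and mural cells. The alternatives were other filters, centring, moderation, array weights, adjustments, fits of fewer groups, a replicate block and birds left out. Promoter motifs were not searched and no sequence was used here.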

Additional observations from a re-analysis of the deposited data

Results flagged for a closer look

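Of 36 groups of 5 birds, 1 per tested member probe set and treatment, 1 held a bird far from the rest by Dixon's criterion. For normally spread values chance alone meets this criterion in about 1 of 20 groups. The bird was fasted bird 2 on the RPTOR probe set GgaAffx.20302.1.S1_s_at, at 8.06 on the log2 scale. There the other fasted birds lay between 8.23 and 8.24, with birds 3, 4 and 5 all at 8.24. On values so nearly tied the rate of 1 in 20 may not hold. The gap of fasted bird 2 to the nearest bird was 0.949 of the group's range, above the critical value of 0.71 for 5 birds. The value of this bird itself lay within the range of the fed and the insulin-neutralized birds.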

How the results depend on the processing

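The counts of member calls for fasted vs. fed (3 in most settings, 2 with 1 probe set per gene, where SESN1 has 1) and for insulin-neutralized vs. fasted birds (0) stayed the same under the alternatives. The count for insulin-neutralized vs. fed birds, 1, did not. It was 0 with no filter, when only 2 groups entered the fit, with the replicate block and without fed birds 4 and 5. It was 2 with trend and robust moderation, array weights or 1 probe set per gene, 3 with the comparisons adjusted together, and 0 to 1 when single birds were left out. With array weights the 2 were both SESN1 probe sets, and TBCK was not called. Over all probe sets that comparison called 92, with a range of 6 to 383, fasted vs. fed birds 1794 (960 to 2171) and insulin-neutralized vs. fasted birds 756 (436 to 1789).

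Some differences that were called in no setting changed sign. SESN3 (Gga.17342.1.S1_at) in fasted vs. fed birds was 0.0020 with centred arrays, 0.11 under array weights and 0.094 without fed birds 4 and 5, and ran from -0.092 to 0.053 when single birds were left out. EIF4EBP1 in insulin-neutralized vs. fed birds was 0.098 under array weights and 0.14 with fed birds 4 and 5 left out, and ran from -0.095 to 0.069 with single birds left out, and from -0.013 to 0.15 in fasted vs. fed birds. PIK3R1 in insulin-neutralized vs. fed birds was -0.011 without fed birds 4 and 5. With single birds left out, DEPTOR ran from -0.26 to 0.011 in fasted vs. fed and from -0.019 to 0.18 in insulin-neutralized vs. fed birds, and MTOR from -0.056 to 0.016 in the latter. For insulin-neutralized vs. fasted birds the ranges were -0.22 to 0.054, -0.065 to 0.027 and -0.025 to 0.10 for the TBCK probe sets Gga.7859.1.S1_at, GgaAffx.6675.1.S1_s_at and GgaAffx.6675.3.S1_s_at, -0.11 to 0.0044 for TSC1 and -0.11 to 0.026 for MIOS. The cause was not tested.

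The deviations of birds of the same number correlated at -0.39 to 0.38, with 7 of 15 above 0.1. Birds of unlike number averaged -0.026 for fasted vs. fed, -0.040 for insulin-neutralized vs. fed and 0.016 for insulin-neutralized vs. fasted birds. In each comparison the same-number values lay mostly above that mean, but on both sides of it. So few correlations cannot decide whether the numbers pair the birds. The fit with the replicate block called 1537, 8 and 638 probe sets for fasted vs. fed, insulin-neutralized vs. fed and insulin-neutralized vs. fasted birds, and gave TBCK Gga.7859.1.S1_at an adjusted p of 0.0819 from limma in insulin-neutralized vs. fed birds. Of the other named genes it ended the calls of MIOS, FOXO3 and KLF15 in fasted vs. fed birds (adjusted p = 0.0561, 0.0565 and 0.0669) and of FOXO1 in insulin-neutralized vs. fasted birds (0.0905). Probe sets near the floor of 2.18, DDIT4 and TSC2 among them, allow no statement on their genes.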

Other observations

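One RPTOR probe set, Gga.7508.2.S1_at, lay below 3 on 10 arrays and was not tested. Its values ran from 2.73 to 4.45, and the highest were 4.45 in fed bird 4 and 4.27 in fasted bird 5.

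The muscle-related transcripts beside TBCK varied between birds. KLHL41 measured 4.35, 3.86, 4.86, 4.35 and 3.60 in insulin-neutralized birds, against 3.19 to 3.53 in fed and 3.19 to 3.42 in fasted birds. This gene was picked from 9242 for its likeness to TBCK Gga.7859.1.S1_at within groups, so that its order of birds is no separate evidence. ACTA1, skeletal muscle actin, measured 9.57 to 11.16 in fed, 10.09 to 11.20 in insulin-neutralized and 9.15 to 9.54 in fasted birds. TNNT3 and TNNI2, fast troponin subunits, also had lower means in fasted than in fed birds, but these groups overlapped. Their log2 differences were -0.51 and -0.55 (adjusted p = 0.422 and 0.619 from limma). TNNT3 measured 5.84 to 7.69 in fed, 6.17 to 7.71 in insulin-neutralized and 6.03 to 6.60 in fasted birds, and TNNI2 2.34 to 5.39, 2.34 to 5.57 and 3.10 to 3.63 in the same order. The part of muscle RNA in the TBCK values was not tested.

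Of the remaining marker lists, the mean level of 5 endothelial genes ran from 11.16 to 12.11 in fed, 11.70 to 12.23 in insulin-neutralized and 11.65 to 12.28 in fasted birds. Immune markers (5 of 6 tested) ran from 11.57 to 11.89, 11.49 to 11.90 and 11.75 to 12.21 in that order of groups, and fibroblast and mural markers (5 of 6 tested) from 12.49 to 12.73, 12.54 to 12.76 and 12.43 to 12.58. Mesothelial markers (3 of 6 tested) ran from 5.51 to 7.86, 5.72 to 7.56 and 5.73 to 7.52, and erythroid markers (2 of 6 tested) from 14.39 to 15.07, 13.89 to 14.97 and 14.25 to 14.77. Their part in the SESN1 and TBCK values was not tested.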
